A study of Mus musculus with 8 samples.

Results

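Cytotoxic granule and effector lymphocyte genes were followed through the leukocytes of arthritic paw joints. The 8 genes were Gzma, Gzmb, Gzmk, Gzmm, Prf1, Nkg7, Ifng and Xcl1, out of 28434 gene rows in the deposited tables. They were chosen by name as genes of killer lymphocytes, and all 8 were found in the tables of both groups. CD45+ cells were isolated from the paws of C57BL/6 mice in which arthritis had been induced by injecting K/BxN serum at days 0, 2 and 9. Recipients were given, at day 12, monocytes of arthritic donors that had been kept for 90 min with 1 nM of the lipid mediator MCTR3 (Mono+MCTR3, 4 mice) or with vehicle (Mono, 4 mice), and joints were taken at day 22. Both groups were therefore arthritic and both received monocytes, and the transferred cells were not the lymphocytes described here. Mice are numbered by the suffix of the cell barcode, which does not tell which labelled mouse each one is.

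Natural killer (NK) cells and CD8 T cells kill target cells with the contents of secretory granules. Perforin, encoded by Prf1, opens the target membrane, and granzymes, serine proteases encoded by the Gzm genes, enter and cleave proteins inside. NKG7 is a membrane protein of these granules that takes part in their release. Interferon gamma (Ifng) activates macrophages, and XCL1 (Xcl1) is a chemokine that attracts dendritic cells carrying the receptor XCR1. NK cells can transcribe these genes before they meet a target, whereas T cells usually switch them on after activation.

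After the cell filter 5015 Mono+MCTR3 cells and 5241 Mono cells remained. Per mouse they held 1731045 to 6009009 UMIs in Mono+MCTR3 and 2602412 to 3832301 in Mono, where a UMI stands for 1 captured transcript molecule. Clusters were formed without the 8 genes. One cluster of 633 cells was NK-cell-like, and all 12 NK markers were found in at least 10% of its cells. One cluster of 763 cells was T-cell-like, and it was divided into 408 CD8 T cells, with a UMI of Cd8a or Cd8b1, and 355 other T cells. A CD3 transcript was found in 37 of the 633 NK cells and in 750 of the 763 T cells, and a CD8 transcript in 0 of the 633 NK cells, which allows a share of up to 0.474%. Transcripts of other cells reached these classes, since a single neutrophil marker was found in up to 96.5% of NK cells. The 2 groups did not differ in the share of these classes beyond the spread between mice. NK cells made up 5.08% ± 1.31 of Mono+MCTR3 cells and 7.10% ± 2.74 of Mono cells (mean and SD of 4 mice each, two-sided exact permutation test, adjusted p = 0.771). The shares were 3.63% ± 1.38 and 4.41% ± 1.88 for CD8 T cells (adjusted p = 0.857) and 3.36% ± 1.25 and 3.34% ± 0.81 for other T cells (adjusted p = 0.971, exact permutation tests, SD, n = 4 each, Mono+MCTR3 first). Without Mono mouse 4 the CD8 T difference was 0.0993 percentage points in place of -0.782.

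The genes lie on 5 chromosomes of GRCm38. Xcl1 is on chromosome 1 (164931644 to 164935527), Nkg7 on chromosome 7 (43437073 to 43438249) and Gzmb on chromosome 14 (56258838 to 56262260). Chromosome 10 carries Prf1 (61297833 to 61304680), Gzmm (79689020 to 79695261) and Ifng (118441046 to 118445892). Gzma (113093825 to 113100981) and Gzmk (113171608 to 113225908) are neighbours on the minus strand of chromosome 13, with 70626 bases between them. The annotated spans of Gzmk, Ifng and Xcl1 overlap those of Esm1, Gm49751 and Gm20743.

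The 250 bases before the RefSeq start are shown for 3 granzyme genes. The neighbours Gzma and Gzmk were chosen because they had different class patterns. Gzmb was added because it was found in NK cells and in cells with mast cell or basophil markers. Capitals mark matches, on either strand, to TGTGGT, the core bound by RUNX factors, and to TCACAC, the core bound by the T-box factors T-bet and Eomes.
Gzma (chr13:113100982-113101231, minus strand): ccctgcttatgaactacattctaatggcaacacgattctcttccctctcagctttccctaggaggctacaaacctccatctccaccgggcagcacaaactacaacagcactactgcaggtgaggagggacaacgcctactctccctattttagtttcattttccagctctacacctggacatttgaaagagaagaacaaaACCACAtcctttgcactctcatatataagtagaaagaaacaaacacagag
Gzmk (chr13:113180966-113181215, minus strand): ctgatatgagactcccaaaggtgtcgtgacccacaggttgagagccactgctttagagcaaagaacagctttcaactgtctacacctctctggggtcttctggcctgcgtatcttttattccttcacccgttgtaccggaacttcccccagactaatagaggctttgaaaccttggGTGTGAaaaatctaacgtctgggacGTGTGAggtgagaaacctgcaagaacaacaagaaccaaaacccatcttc
Gzmb (chr14:56262335-56262584, minus strand): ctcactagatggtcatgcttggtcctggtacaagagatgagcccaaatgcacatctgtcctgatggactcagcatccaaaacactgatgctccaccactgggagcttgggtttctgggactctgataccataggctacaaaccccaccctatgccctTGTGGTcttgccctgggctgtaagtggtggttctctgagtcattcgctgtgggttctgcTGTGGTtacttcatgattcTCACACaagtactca
Gzma had 1 RUNX match and 0 T-box matches, Gzmk had 0 and 2, and Gzmb had 2 and 1. Over all 8 genes, 6 held the RUNX core and 5 the T-box core in a window, and these were found in 14.0% and 12.3% of 32851 promoter windows of the same length. The 8 genes had 9 windows, and Gzmm had 1 core in each of its 2 windows. The counts are per gene and the shares per window, so they are not like measures. Ifng held neither. The Gzmk window lies within the longer Gzmk span of the GENCODE annotation. A match describes the letters only.

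NK cells carried most transcripts of 6 of the 8 genes. They held 93.9% of the Gzma UMIs (18583 of 19780), 90.2% of Prf1 (212 of 235), 79.9% of Xcl1 (2438 of 3051), 79.0% of Ifng (1380 of 1746), 75.8% of Gzmb (1641 of 2166) and 71.7% of Nkg7 (9176 of 12793). Gzmk and Gzmm were different. CD8 T cells held 77.1% of the 83 Gzmk UMIs and 54.8% of the 104 Gzmm UMIs, against 16.9% and 33.7% in NK cells. Mono mouse 4 supplied 52 of the 64 Gzmk UMIs of CD8 T cells, and without it, a choice made after seeing the data, CD8 T cells held 44.4% of the remaining 27 and NK cells 40.7%. The genes serve as markers of these classes, so the differences between classes are given as a description.

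**Figure D1:**
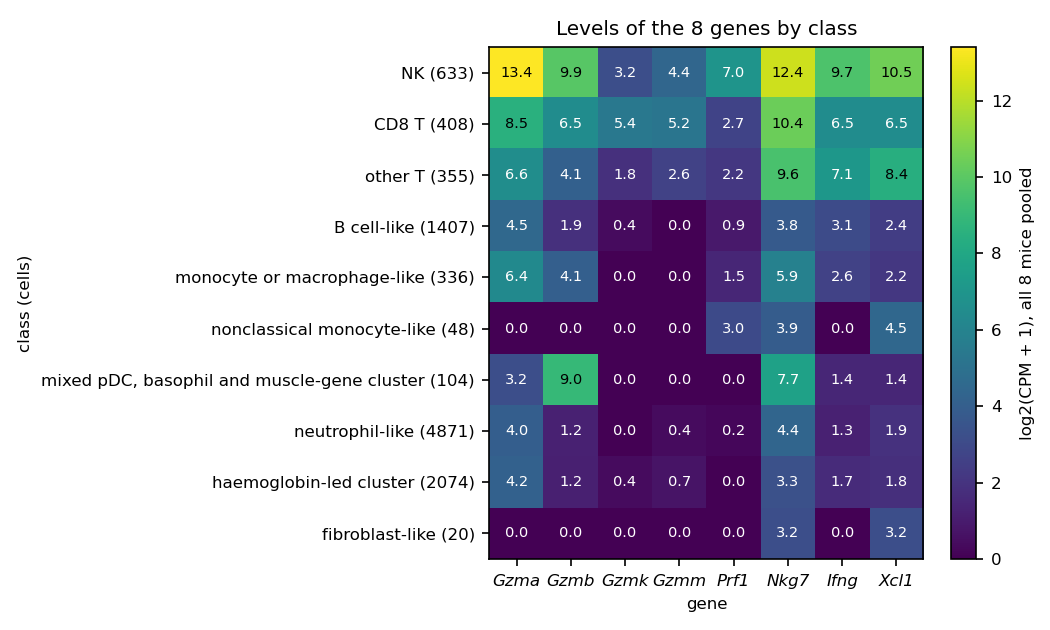
Level of each gene (columns) in each class (rows, with the number of cells) as log2(CPM + 1), where CPM is UMIs per 1000000 UMIs of the class over all 8 mice. Gzma in NK cells (10850 CPM) is the highest value, Gzmk is at 39.8 CPM in CD8 T cells and 8.17 CPM in NK cells (9.83 and 7.74 CPM without Mono mouse 4), and the highest values outside lymphocytes are those of Gzmb (502 CPM) and Nkg7 (206 CPM) in a mixed cluster of 104 cells.

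Levels are given as CPM, that is, counts per 1000000 UMIs of a class in 1 mouse. Each is relative to the other transcripts of the class, and 3′ counts were not scaled to gene length. In NK cells Gzma averaged 11111 ± 1492 CPM over the 8 mice (SD), against 244 ± 381 in CD8 T cells and 71.2 ± 109 in other T cells. Nkg7 followed the same order, at 5325 ± 309 in NK cells, 1292 ± 393 in CD8 T cells and 765 ± 254 in other T cells, and this order held in 8 of 8 mice. Xcl1 stood at 1439 ± 214 CPM in NK cells, but here other T cells (329.7 ± 165) lay above CD8 T cells (102 ± 53.1) in 8 of 8 mice. Ifng averaged 777 ± 334 CPM in NK cells, 108 ± 112 in CD8 T cells and 151 ± 148 in other T cells, and CD8 T and other T cells overlapped. For Gzmb (960.1 ± 141 CPM in NK cells) and Prf1 (129 ± 41.9) NK cells lay above both T classes in 8 of 8 mice. Between the T classes, CD8 T cells were higher in 4 of 8 mice for each gene, and some other mice had 0 UMIs in both classes. Prf1 rested on 9 UMIs in CD8 T cells and 4 in other T cells, too few to order them. Gzmb rested on 144 and 19. Gzmk averaged 29.9 ± 45.5 CPM in CD8 T cells and 7.34 ± 7.08 in NK cells, a difference within the spread between mice, and it was found in the CD8 T cells of 5 of 8 mice. Gzmm averaged 36.0 ± 19.5 CPM in CD8 T cells and 18.6 ± 11.9 in NK cells, which overlap. CD8 T cells lay above other T cells (5.28 ± 7.18) in 8 of 8 mice. That order rested on few counts, 57 Gzmm UMIs in CD8 T cells, 1 of them in Mono mouse 1, and 6 in other T cells.

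Shares of cells with a UMI depend on depth, so cells were also thinned to 1000 UMIs each, which left out 10 of 633 NK cells (4 of Mono+MCTR3, 6 of Mono). Nkg7 was then found in 97.9% of NK cells, Gzma in 93.6%, Gzmb in 48.8%, Xcl1 in 41.1%, Ifng in 35.6% and Prf1 in 13.5%. Gzmm was found in 1.93% and Gzmk in 0.482%. Before thinning the shares were 99.8%, 95.6%, 68.7%, 58.5%, 52.3%, 28.4%, 4.42% and 2.05% for the same genes in the same order. In neutrophil-like cells, which should lack these genes, the thinned shares were 1.44% for Nkg7, 1.28% for Gzma and at most 0.177% for the other 6. The median depth was 2473 UMIs in NK cells and 1961 in neutrophil-like cells. The Gzmk share of NK cells had an exact 95% binomial interval of 0.0994% to 1.40%, and before thinning Gzmk was found in 0 of 4871 neutrophil-like cells, which allows a share of up to 0.0616%. Intervals cover counting error only. Most NK cells held several of the genes, since 81.2% of the thinned cells had at least 3 of the 8.

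Within NK cells Gzma, Gzmb and Prf1 were found together, and Gzmb was found less often in Xcl1+ cells. Gzmm, found in 12 thinned NK cells, was in 0.658% of Gzmb+ and 3.13% of Gzmb- cells (lower in 4 of 8 mice, higher in 0). Gzmk was found in 3 thinned NK cells, 0 of them Gzmb+. The values below are from thinned cells and describe detection within each mouse, where the points share a library. Prf1 was found in 17.1% of Gzmb+ NK cells and in 10.03% of Gzmb- NK cells, and the share was higher in Gzmb+ cells in 8 of 8 mice. Gzmb+ cells also held more Gzma, at 15.01 UMIs per cell against 9.32 in Gzmb- cells (8 of 8 mice), and Prf1+ cells held 17.2 against 11.3 in Prf1- cells (8 of 8 mice). Xcl1+ cells held less Gzma, at 9.01 UMIs against 14.3 in Xcl1- cells, lower in 8 of 8 mice. Gzmb was found in 37.9% of Xcl1+ and 56.4% of Xcl1- NK cells, with the lower share in Xcl1+ cells in 7 of 8 mice. The exception was Mono+MCTR3 mouse 3, where the shares were 55.6% and 54.2%. Xcl1 was found in 45.5% of Ifng+ and 38.7% of Ifng- cells (higher in 7 of 8 mice), while Gzmb differed little between them, at 49.5% and 48.4% (higher in 4 of 8 mice). Of 3 maturation genes looked at after their values were seen, Cd27, a receptor of less mature NK cells, was found in 13.3% of Xcl1+ and 7.90% of Xcl1- cells (higher in 7 of 8 mice). Klrg1, an inhibitory receptor of mature NK cells, was found in 8.20% and 16.3% of them (lower in 6 of 8 mice), and the integrin gene Itgam in 8.59% and 13.1% (lower in 5 of 8 mice).

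**Figure D2:**
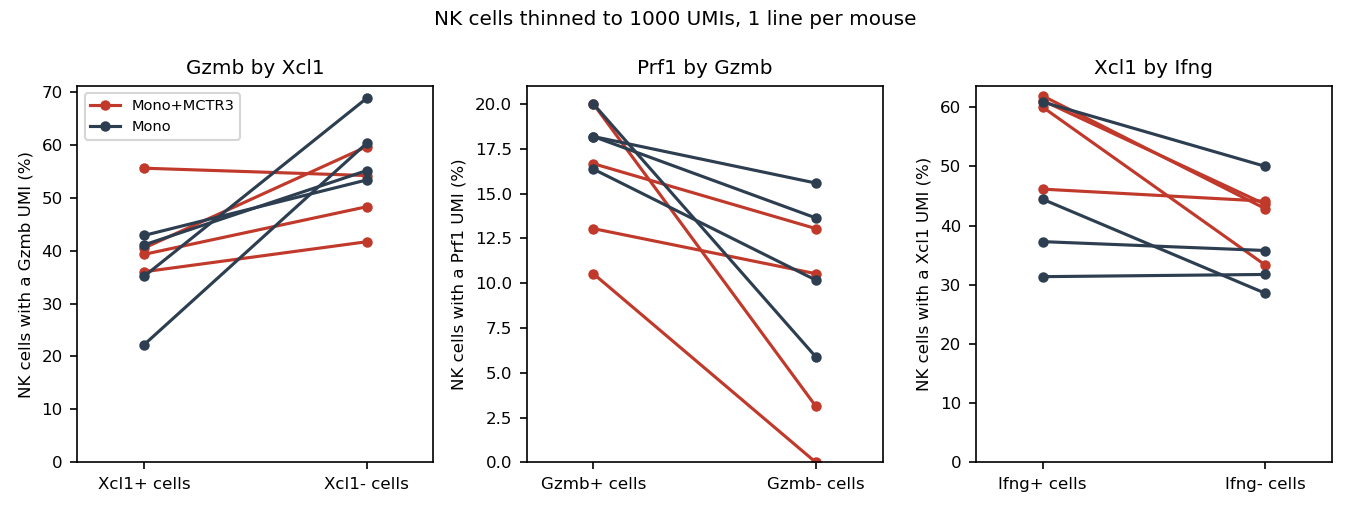
Share of NK cells (percent, vertical axis) with a UMI of Gzmb by Xcl1 detection, of Prf1 by Gzmb detection and of Xcl1 by Ifng detection, after thinning to 1000 UMIs, with 1 line per Mono+MCTR3 or Mono mouse. The Gzmb share is lower in Xcl1+ cells in 7 of 8 mice, and the Prf1 share is higher in Gzmb+ cells in 8 of 8.

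Among T cells each gene had its own holders. Xcl1 was found in 122 T cells, of which 40.2% were CD8 T cells, 40.2% held a transcript of a gamma delta receptor gene (9.98% of T cells without Xcl1) and 44.3% held at least 2 of 7 NK receptor genes (2.18% of those without). In other T cells, the 43 cells with at least 2 NK receptor genes held 256 of the 396 Xcl1 UMIs, and Xcl1 was found in 83.7% of these cells and in 11.9% of the remaining 312. These cells were also deeper, with a median of 4163 UMIs against 2991. Ifng was found in 101 T cells, 28.7% of them with a gamma delta transcript and 26.7% with at least 2 NK receptor genes. Gzmk was found in 30 T cells, 27 (90%) of them CD8 T cells, and 20 of these 27 came from Mono mouse 4. Of the 30 cells, 1 (3.33%) held a gamma delta transcript, against 15.3% of T cells without Gzmk. At least 2 NK receptor genes were found in 0 of the 30, against 9.28% of T cells without Gzmk. A count of 0 of 30 allows a share of up to 10%, so these NK receptor shares cannot be told apart. Cd4 was found in 3 of the 122 Xcl1+ T cells and in 4 of the 101 Ifng+ ones. It was found in 75 of the 355 other T cells, which held 23 of the 158 Ifng UMIs and 26 of the 396 Xcl1 UMIs of that class.

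Gzma in CD8 T cells came from few cells, most of them in 1 mouse. Of 408 CD8 T cells, 26 held 5 or more Gzma UMIs. They carried 546 of the 582 UMIs of Gzma, the gene they were picked by. They also carried 102 of the 144 Gzmb UMIs and 44 of the 64 Gzmk UMIs of the class. In them lay 0 of the 147 Xcl1 UMIs and 0 of the 9 Prf1 UMIs, and 9 UMIs are too few to show a lack. Mono mouse 4 supplied 19 of the 26, out of its 94 CD8 T cells (20.2%), and each of the other 7 mice supplied 0 to 2. All 94 CD8 T cells of Mono mouse 4 held 6 Xcl1 UMIs, in 5 cells, so the Xcl1 count cannot be told apart from that mouse. At least 2 NK receptor genes were found in 4 of the 26.

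The comparison of Mono+MCTR3 with Mono asked whether transfer of MCTR3-treated monocytes was followed by other levels of these genes in joint lymphocytes. Sums of UMIs over NK, CD8 T, other T and neutrophil-like cells of each mouse were fitted over all genes with edgeR's quasi-likelihood test. None of the 8 genes passed an adjusted p of 0.05 in these 4 classes. In NK cells 6 of the 8 had enough UMIs to be tested, with 0 called, against 0 of 2230 genes tested (0%). At an unadjusted p under 0.05 the counts were 0 of the 6 and 110 of the 2230 (4.93%). DESeq2 and edgeR's likelihood ratio test also called 0 genes in NK cells. The median log2 fold change was -0.09 for the 6 genes and 0.00 for all genes tested, with 4 lower and 2 higher in Mono+MCTR3.

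Gzma in NK cells stood at 10164, 9029, 13467 and 9858 CPM in Mono+MCTR3 mice 1 to 4, against 12791, 10707, 11328 and 11540.1 CPM in Mono mice 1 to 4. The groups overlapped, because Mono+MCTR3 mouse 3 was the highest of all 8 and the other 3 lay below every Mono mouse. The log2 fold change was -0.11 (SE 0.11, 95% interval -0.35 to 0.13, edgeR adjusted p = 0.944), -0.25 without Mono+MCTR3 mouse 3 and -0.049 without Mono+MCTR3 mouse 2. Gzmb stood at 774, 764, 911 and 1109 CPM in Mono+MCTR3, against 1146, 1038, 959 and 981 CPM in Mono. Here too 3 Mono+MCTR3 mice lay below every Mono mouse and mouse 4 did not, with a log2 fold change of -0.20 (SE 0.14, 95% interval -0.49 to 0.08, edgeR adjusted p = 0.944), and -0.33 without that mouse. In Mono+MCTR3 mouse 4 a single cell held 49 of the 156 Gzmb UMIs. With the cell richest in the gene left out of each mouse, chosen after the values were seen, Gzmb stood at 707 to 839 CPM in Mono+MCTR3 and 887 to 1029 CPM in Mono. Gzmb was then the 1 gene of the 6 whose groups did not overlap, as for 61 of the 2230 genes (2.74%) that were lower in Mono+MCTR3 by the same measure, and no test was run on these values. Prf1 stood at 78.0, 92.0, 176 and 85.3 CPM in Mono+MCTR3, against 173, 124, 176 and 124 CPM in Mono. Its log2 fold change was -0.47 (SE 0.24, 95% interval -0.98 to 0.04, unadjusted p = 0.0702, edgeR adjusted p = 0.944), and Mono+MCTR3 mouse 3 was again the mouse apart from its group. These values rest on 12 to 53 Prf1 UMIs per mouse. Nkg7 varied little, at 4851, 4882, 5446 and 5501 CPM in Mono+MCTR3 and 5235, 5677, 5548 and 5460.4 CPM in Mono. Its interval was the narrowest of the 6 (log2 fold change -0.07, 95% interval -0.26 to 0.12, edgeR adjusted p = 0.955), which corresponds to a fold between 0.833 and 1.09.

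Ifng was the most variable of the 6 genes between mice. It stood at 787, 446, 1087 and 1102 CPM in Mono+MCTR3, against 245, 1124, 539 and 884 CPM in Mono. The Mono+MCTR3 mice lay within the range of the Mono mice (log2 fold change 0.20, SE 0.32, 95% interval -0.48 to 0.88, edgeR adjusted p = 0.971), and without Mono mouse 1 the sign turned (-0.049). Xcl1 stood at 1574, 1617, 1312 and 1429 CPM in Mono+MCTR3, against 1161, 1166, 1753 and 1497 CPM in Mono (log2 fold change 0.11, SE 0.14, 95% interval -0.18 to 0.41, edgeR adjusted p = 0.955). It was 0.025 without Mono mouse 2 and 0.24 without Mono mouse 3. Gzmk (6 and 8 UMIs in all) and Gzmm (10 and 25 UMIs) were too low in NK cells of Mono+MCTR3 and Mono to be tested.

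**Figure D3:**
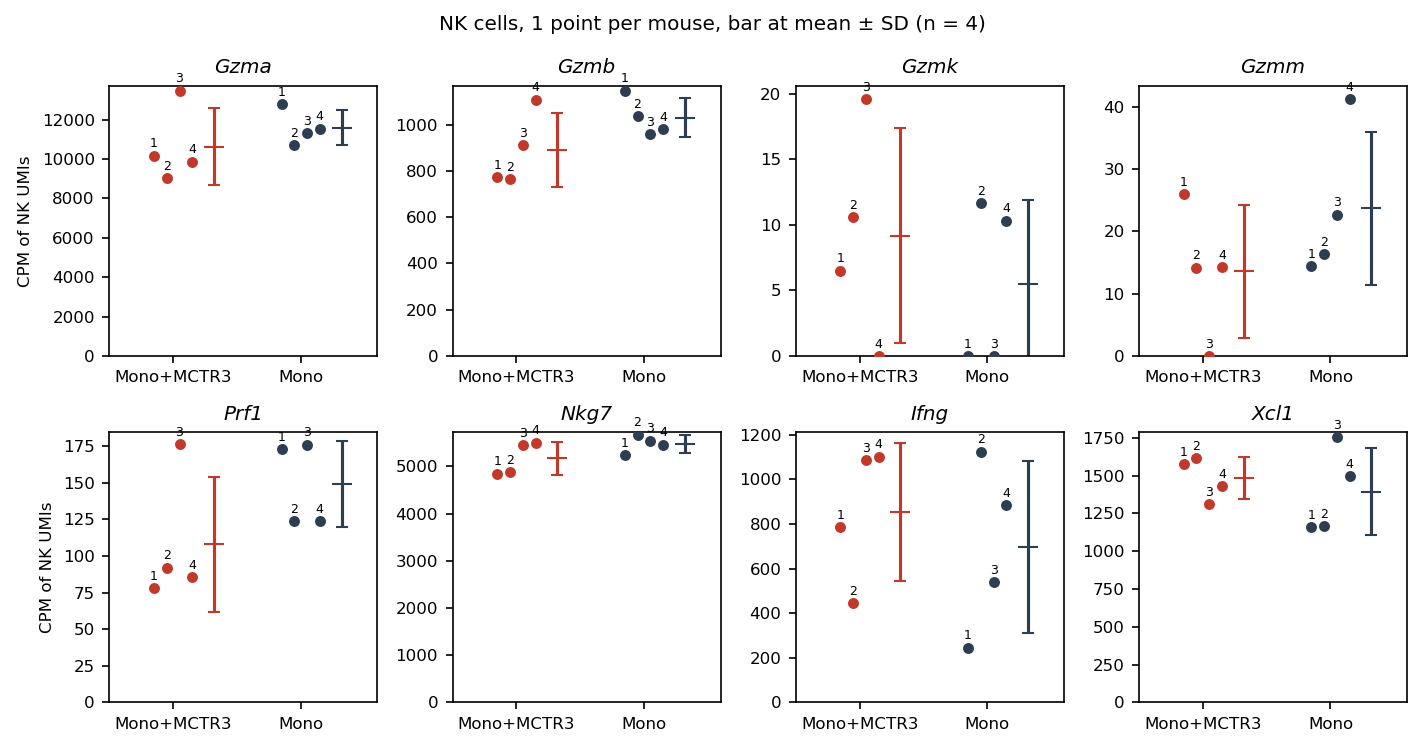
Level of the 8 genes in NK cells (CPM, vertical axis from 0), with 1 numbered point per Mono+MCTR3 or Mono mouse and the mean ± SD beside the points (n = 4 per group). The groups overlap for every gene, and Nkg7 has the smallest spread relative to its level.

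In CD8 T cells 4 of the 8 genes were tested and 0 were called, as were 0 of 2120 genes (0%; 99 or 4.67% at an unadjusted p under 0.05, 0 by DESeq2, which gave Gzma no p, and 1 by the likelihood ratio test). Gzma stood at 109.7, 19.2, 12.6 and 276 CPM in Mono+MCTR3 mice, against 99.9, 101, 166 and 1165 CPM in Mono mice. Mono mouse 4, which held most of the Gzma-rich cells, stood far above the others. The log2 fold change was -1.94 (SE 0.70, 95% interval -3.40 to -0.49, unadjusted p = 0.0115, edgeR adjusted p = 0.870), and without Mono mouse 4 it was -0.15. With no filter on low counts the adjusted p of Gzma was 3.99e-15 and its log2 fold change -1.98, on the same mice. Gzmb did not pass the filter on low counts, and 126 of its 144 UMIs lay in Mono mouse 4. It stood at 7.57, 9.60, 0 and 15.3 CPM in Mono+MCTR3, against 0, 28.9, 49.9 and 326 CPM in Mono. Gzmk, also not tested, stood at 0, 0, 37.7 and 15.3 CPM in Mono+MCTR3, against 0, 9.62, 41.5 and 135 CPM in Mono. In both genes Mono mouse 4 was again the highest. The median log2 fold change of the 4 genes tested was -0.29, and that of all genes tested 0.00, with 3 lower and 1 higher in Mono+MCTR3. Xcl1 went the other way, at 174, 81.6, 151 and 99.6 CPM in Mono+MCTR3 and 52.3, 144, 99.7 and 15.5 CPM in Mono (log2 fold change 0.95, SE 0.43, 95% interval 0.04 to 1.85, unadjusted p = 0.0417, edgeR adjusted p = 0.870). Mono mouse 4 was its lowest mouse, and the groups overlapped. The log2 fold change was 0.39 without that mouse and 1.62 without Mono mouse 2, and 1 cell of Mono+MCTR3 mouse 1 held 25 of its 46 Xcl1 UMIs. Nkg7 (-0.26, SE 0.20) and Ifng (-0.31, SE 0.55) had intervals that include 0. Nkg7 was at -0.036 without Mono mouse 4, and the sign of Ifng turned with DESeq2 (0.21) and with the likelihood ratio test (0.12).

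**Figure D4:**
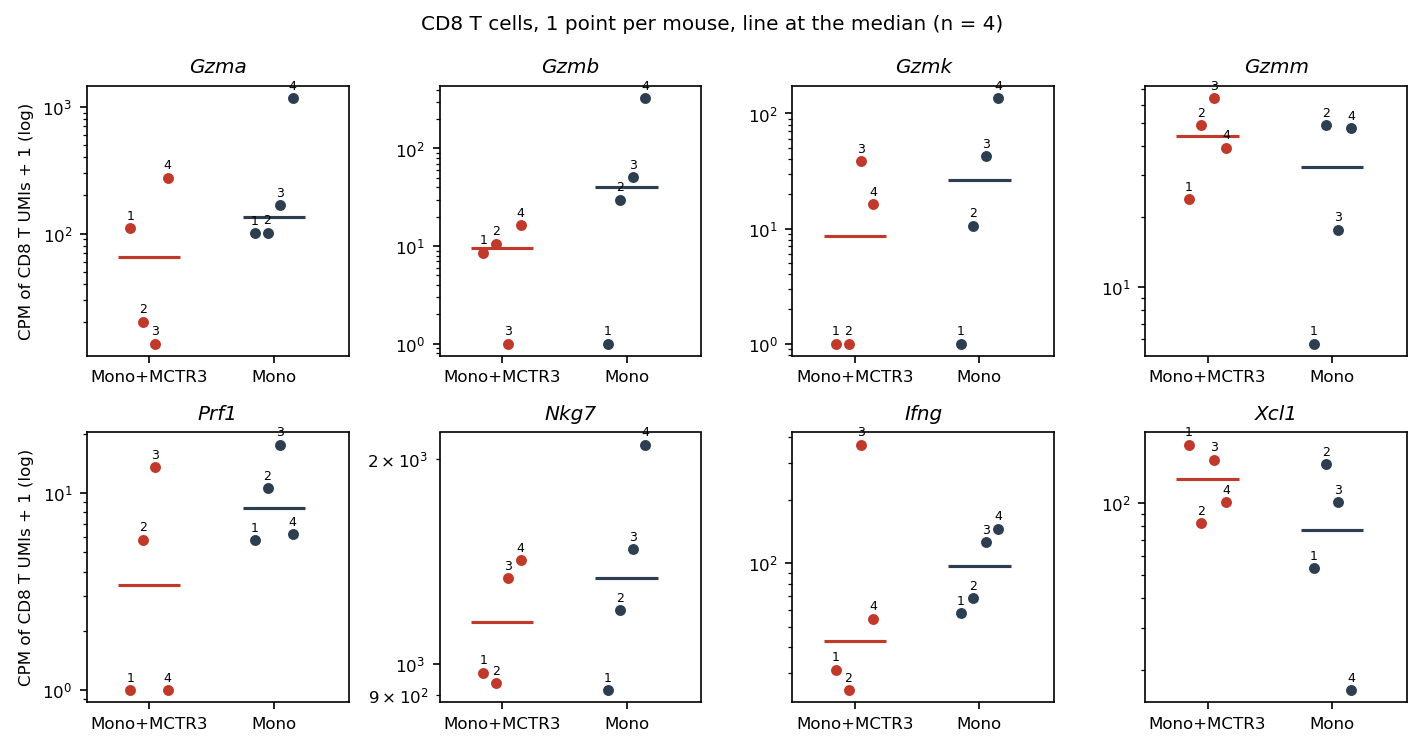
Level of the 8 genes in CD8 T cells (CPM + 1 on a log axis), with 1 numbered point per Mono+MCTR3 or Mono mouse and a line at the median (n = 4 per group). Mono mouse 4 is the highest for Gzma (1165 CPM), Gzmb (326 CPM), Gzmk (135 CPM) and Nkg7 (2097 CPM) and the lowest for Xcl1 (15.5 CPM).

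In other T cells 3 of the 8 genes were tested and 0 were called by edgeR, against 1 of 1631 genes (0.0613%). At an unadjusted p under 0.05 the counts were 0 and 78 (4.78%). Nkg7 had a log2 fold change of -0.25 (SE 0.26), Ifng -0.71 (SE 0.67) and Xcl1 -0.15 (SE 0.36), with edgeR adjusted p from 0.957 to 0.987. Ifng stood at 73.5, 31.5, 429 and 37.3 CPM in Mono+MCTR3, against 39.4, 303, 88.9 and 205 CPM in Mono. In Mono+MCTR3 mouse 3 a single cell held 22 of the 29 Ifng UMIs. Xcl1 stood at 446, 270.3, 237 and 286 CPM in Mono+MCTR3, against 654, 387, 111 and 246 CPM in Mono, and the groups overlapped. Nkg7 stood at 431, 658, 1079 and 708 CPM in Mono+MCTR3, against 686, 1047, 489 and 1021 CPM in Mono. Of the genes that did not pass the filter on low counts, Gzma stood at 9.81, 180.2, 44.3 and 0 CPM in Mono+MCTR3, against 7.88, 29.8, 0 and 298 CPM in Mono. Gzmb, Gzmk, Gzmm and Prf1 were at most 36.0 CPM in any mouse.

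**Figure D5:**
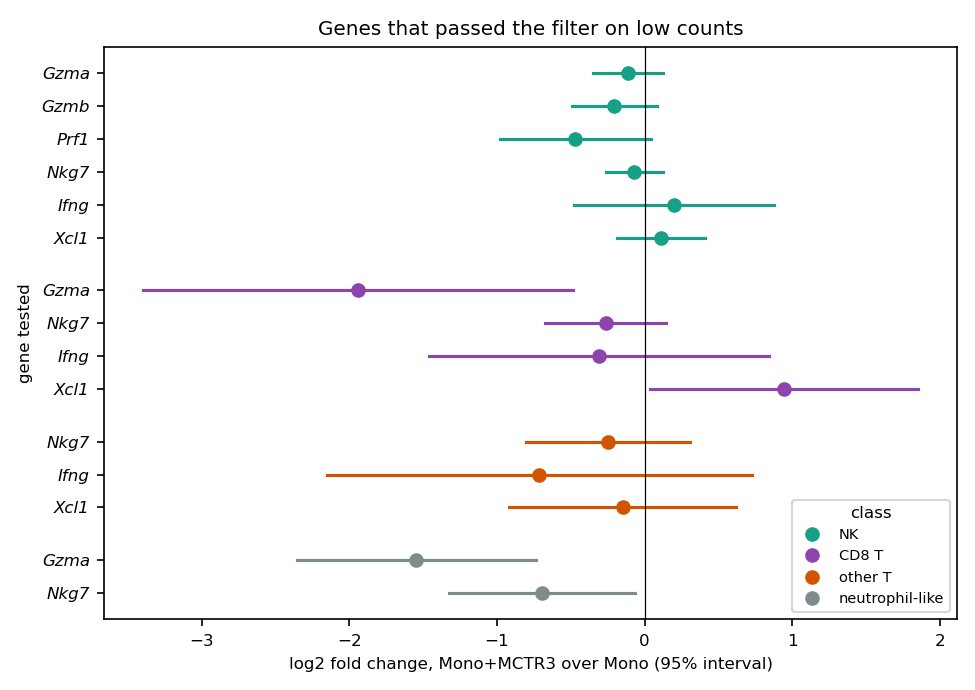
Log2 fold change of Mono+MCTR3 over Mono (horizontal axis, line at 0) with its 95% interval from edgeR for every gene of the 8 that passed the filter on low counts in NK cells, CD8 T cells, other T cells and neutrophil-like cells. The intervals of the 6 genes in NK cells include 0, and those of Gzma and Xcl1 in CD8 T cells and of Gzma and Nkg7 in neutrophil-like cells do not, although no adjusted p passed 0.05.

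Genes that work with the 8 were looked at in the same fits. The 1 gene called in other T cells was Ccl4, a chemokine of activated killer lymphocytes that was also found in neutrophil-like cells. It stood at 39.2, 99.1, 29.6 and 0 CPM in Mono+MCTR3, against 236, 452, 389 and 277 CPM in Mono. It fell by 2.64 on the log2 scale (SE 0.40, edgeR adjusted p = 0.0188), and the groups did not overlap, as for 21 of the 1631 genes (1.29%) that were lower in Mono+MCTR3. The call was lost without Mono+MCTR3 mouse 1 (-2.47, adjusted p = 0.200), without Mono+MCTR3 mouse 3 (-2.53, 0.101) and without Mono mouse 2 (-2.45, 0.0702), with log2 fold changes near that of all mice. In NK cells Ccl4 stood at 4078 ± 1289 CPM in Mono+MCTR3 mice and 4791 ± 1205 CPM in Mono mice (SD, n = 4 each, log2 fold change -0.23, edgeR adjusted p = 0.944). In neutrophil-like cells Ccl4 stood at 1035 ± 363 CPM in Mono+MCTR3 mice and 839 ± 582 CPM in Mono mice, above other T cells. The summed level of 12 neutrophil markers in other T cells was 7114 to 14578 CPM in Mono+MCTR3 and 3169 to 24464 CPM in Mono. The difference between the classes and the part of transcripts from other cells were not tested. Ccl3, a related chemokine, had a log2 fold change of -3.06 in CD8 T cells (SE 0.63, edgeR adjusted p = 0.195) on 140 UMIs, and 0.17 in NK cells. In CD8 T cells it stood at 11.4, 33.6, 0 and 0 CPM in Mono+MCTR3, against 52.3, 48.1, 158 and 233 CPM in Mono. Mono mouse 4 was the highest. Ccl5, the chemokine with the most UMIs in NK cells, stood at 22246 ± 5079 CPM in Mono+MCTR3 NK cells and 25101 ± 1388 CPM in Mono NK cells (log2 fold change -0.16). Xcr1, the receptor of XCL1, had 0 UMIs in NK and CD8 T cells.

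Of the other lists, none had a member past the threshold in NK cells. Among 11 genes of granule maturation and release 6 were tested (median log2 fold change -0.04), and Ctsc, the protease that activates granzymes, was the one with an unadjusted p under 0.05, at 175 ± 20.9 CPM in Mono+MCTR3 and 226 ± 23.5 CPM in Mono (log2 fold change -0.41, SE 0.16, edgeR adjusted p = 0.944). Vamp8 (0.14) and Lamp1 (-0.26), a vesicle fusion protein and a lysosome membrane protein, were the others with most UMIs. Of 8 other granule proteins 2 were tested, Srgn (0.19), the proteoglycan that packs granzymes, and the protease gene Ctsw (0.07), while Gzmc had 10 UMIs. Of 5 granzyme inhibitors 4 were tested (median 0.14), led in UMIs by Serpinb6b (0.24), Serpinb9 (0.06) and Serpina3g (0.21). Of 4 death ligands 1 was tested, Fasl (0.01), and Tnf and Tnfsf10 had 11 and 10 UMIs. Of 11 genes of the interferon gamma axis 6 were tested (median 0.06), among them Ifngr1 (-0.01), Jak1 (0.17) and Stat4 (0.30). Of 7 effector transcription factors 5 were tested (median 0.03), among them Id2 (0.00), Eomes (0.03) and Zeb2 (-0.07).

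Over 54 sums of a class in a mouse, the genes with the pattern most like each of the 8 were ranked by the Pearson correlation of log2(CPM + 10) among 8523 genes. The sums of a mouse share a library, so the correlations are a description. They were Eomes (0.92), Serpinb6b (0.92) and Camk2n1 (0.92) for Gzma, Osbpl3 (0.91), Serpinb6b (0.89) and Ctla2b (0.88) for Gzmb, and Cma1 (0.96), Serpinb9b (0.96) and Klri2 (0.95) for Prf1. For Nkg7 they were Ctsw (0.98), Cst7 (0.97) and Ctla2a (0.96), for Ifng Klrc1 (0.96), Samd3 (0.96) and Tbx21 (0.96), and for Xcl1 Il2rb (0.96), Fasl (0.96) and Samd3 (0.96). The patterns of Gzmm (Lcn4 0.78, Cst7 0.76, Sidt1 0.75) and Gzmk (Ppic 0.64, Kctd2 0.62, Gbp8 0.60) had no gene as close. Gzmm and Gzmk had 104 and 83 UMIs in all cells, and the part of such low counts in their correlations was not tested. Among the 8 themselves Nkg7 and Xcl1 (0.92) were the closest pair. Prf1 and Gzmk had the lowest correlation (0.30), on 235 and 83 UMIs.

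Outside NK and T cells the genes were low except for Gzmb and Nkg7 in a mixed cluster, and single cells carried much of what was found. In monocyte or macrophage-like cells 3 cells held 167 of the 185 Gzma UMIs, and in B-cell-like cells 1 cell held 31 of 75. The haemoglobin-led cluster held 55 Gzma and 29 Nkg7 UMIs and at most 8 of each other gene, and nonclassical monocyte-like and fibroblast-like cells held at most 3 and 1 UMIs of any. Gzmb had 297 UMIs in a cluster of 104 cells that mixed markers of plasmacytoid dendritic cells (pDC), basophils or mast cells, and muscle. Of these UMIs, 296 lay in 12 of the 35 cells that held more mast cell or basophil than pDC marker UMIs, 11 of them with a Mcpt8 transcript, a basophil protease, and 0 UMIs lay in the 57 cells with more pDC marker UMIs. The 12 cells came from 5 mice, the highest held 91 Gzmb UMIs, and none held a Prf1 or Gzma transcript. Levels of Gzmb and Mcpt8 did not rise together in them. The cells with 91, 49, 47 and 45 Gzmb UMIs held 1, 2, 2 and 2 Mcpt8 UMIs. Those with 43, 185 and 479 Mcpt8 UMIs held 15, 6 and 1 Gzmb UMIs. Nkg7 had 122 UMIs in 25 of the 104 cells (206 CPM), 63 of them in 13 of the 35 cells and 9 in the 57. The markers were split in this way after the values were seen.

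Neutrophil-like cells held 186 Gzma and 245 Nkg7 UMIs in 4871 cells. Gzma made up 43.2% of the 2 genes' UMIs there (exact 95% binomial interval 38.4% to 48.0%). Between neutrophil-like clusters the share ran from 37.8% (31.1% to 44.9%) to 53.3% (41.4% to 65.0%). The cluster with the lowest share held 125 of the 245 Nkg7 UMIs. Over all cells the share was 60.7% (60.2% to 61.3%). The share was 66.9% in NK cells (66.4% to 67.5%), 63.0% in B-cell-like cells (53.7% to 71.7%) and 58.0% in monocyte or macrophage-like cells (52.4% to 63.5%). It was 65.5% (54.3% to 75.5%) in the haemoglobin-led cluster, where 10 of 12 neutrophil markers were found in at least 10% of cells. Gzma in that cluster stood at 5.76 to 18.5 CPM in Mono+MCTR3 and 11.1 to 31.5 CPM in Mono, which overlap. The intervals treat UMIs as independent and leave out the spread between cells and mice. In neutrophil-like cells 4 cells held 65 of the 245 Nkg7 UMIs. Gzma in neutrophil-like cells stood at 7.52, 9.97, 3.38 and 6.22 CPM in Mono+MCTR3 mice, against 32.5, 30.2, 11.4 and 20.5 CPM in Mono mice. The groups did not overlap, as for 84 of 4896 genes (1.72%) that were lower in Mono+MCTR3. The log2 fold change was -1.55 (SE 0.37, unadjusted p = 0.00124, edgeR adjusted p = 0.995), so Gzma was not called, and 0 of 4896 genes (0%) were (219 or 4.47% at an unadjusted p under 0.05, 2 by DESeq2). However, 1 neutrophil-like cell of Mono mouse 1 held 40 of the 46 Gzma UMIs of that mouse. Without the 4 cells that held 5 or more UMIs of any of the 8 genes, chosen after the values were seen, Mono mouse 1 had 4.33 CPM and the groups overlapped. Nkg7 in neutrophil-like cells stood at 13.2, 19.9, 8.44 and 12.4 CPM in Mono+MCTR3, against 33.3, 25.4, 19.8 and 23.2 CPM in Mono, and the groups overlapped (log2 fold change -0.69, SE 0.29, edgeR adjusted p = 0.995). Gzma over all cells of a mouse moved in the same direction, at 457 to 827 CPM in Mono+MCTR3 and 589 to 1386 CPM in Mono, and NK cells supplied 4.39% to 8.13% of the UMIs in Mono+MCTR3 and 4.40% to 12.7% in Mono. Ccl5 in neutrophil-like cells stood at 32.6 to 50.8 CPM in Mono+MCTR3 and 63.2 to 123 CPM in Mono. The summed level of the 12 NK markers in neutrophil-like cells was 8 to 12 CPM in Mono+MCTR3 and 14 to 32 CPM in Mono. The part of free RNA or doublets in these values was not tested.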

How the data were processed

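Single cell RNA sequencing (10x Chromium, 3′ kit) was done on CD45+ joint cells. The deposited tables, 1 for each group, hold UMI counts that the authors obtained with Cell Ranger (GRCm38) and aggregated within a group, and tool versions are not stated in the sources used here. Mice were told apart by barcode suffix, and any 2 mice shared 0 to 8 barcodes. The methods give 1 cell suspension per mouse, so each suffix was taken as 1 mouse. Barcodes were kept with 250 to 3000 genes, 500 or more UMIs and no more than 5% of UMIs from mitochondrial genes. They were clustered in Seurat 5.3.0 (2000 variable genes less the 8 genes, 20 components, resolution 0.5) and named from marker lists. Scrublet called 52 cells (0.507%) as doublets, which were kept.

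Counts were summed per mouse and class and tested in edgeR 4.0.16 (TMM, filterByExpr, quasi-likelihood, Benjamini-Hochberg), checked on simulated data. Class shares were compared by exact permutation tests, adjusted over the 3 classes. The smallest p with 4 against 4 mice is 0.0286, so after adjustment a class alone could not pass the threshold. The fit on neutrophil-like cells was added after seeing the data. The members and lists were chosen with earlier results of these data known. The text names the 8 genes, for each list the 3 genes with most UMIs in NK cells and those past the threshold, and the 3 genes most like each of the 8. Alternatives were no filter, DESeq2 1.42.0, scaling by library totals, the likelihood ratio test of edgeR, each mouse left out, 10% mitochondrial UMIs, resolutions of 0.3 and 1.0, the 8 genes kept for clustering, doublets removed, and stricter CD3 and CD8 gates. Coordinates come from GENCODE vM21 and promoter windows from RefSeq (GRCm38.p6), where 8 of the 8 genes matched.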

Additional observations from a re-analysis of the deposited data

Results flagged for a closer look

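Among 39 groups of 4 mice checked, 6 had 1 mouse far from the other 3, and chance flags about 1 in 20 such groups. In CD8 T cells Mono mouse 4 stood apart for Gzma (1165 CPM) and Gzmb (326 CPM), where 19 of its 94 cells held 5 or more Gzma UMIs. The same mouse stood apart for Gzma in other T cells (298 CPM), and 1 cell held 54 of those 58 UMIs. Mono+MCTR3 mouse 3 stood apart for Ifng in CD8 T cells (365 CPM, 29 UMIs in 5 of 23 cells) and in other T cells (429 CPM, 22 of 29 UMIs in 1 cell). It also stood apart for Prf1 in NK cells (176 CPM, 18 UMIs), at about the level of the highest Mono mouse.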

How the results depend on the processing

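The count of genes called depended on the filter more than on other settings. With no filter on low counts it was 2 in NK cells, 7 in CD8 T cells, 20 in other T cells and 67 in neutrophil-like cells. The likelihood ratio test called 1 gene in CD8 T cells and 2 in neutrophil-like cells, and DESeq2 called 2 in neutrophil-like cells. With each mouse left out in turn the counts ranged from 0 to 0 in NK cells, 0 to 2 in CD8 T cells, 0 to 5 in other T cells and 0 to 1 in neutrophil-like cells. The cause was not tested. With no filter Gzma passed the threshold in CD8 T cells (-1.98, adjusted p = 3.99e-15) and in neutrophil-like cells (-1.57, adjusted p = 6.51e-06, chosen after seeing the data), and no other alternative that gave an adjusted p passed it for the 8 genes. DESeq2 gave none for Gzma in CD8 T cells. In CD8 T cells Gzma ranged from -2.76 to -0.15 with a mouse left out, the lowest size without Mono mouse 4.

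The sign turned for Ifng in NK cells without Mono mouse 1 (-0.049), for Xcl1 in other T cells without Mono mouse 1 (0.29), and for Ifng in CD8 T cells with DESeq2 (0.21), with the likelihood ratio test (0.12), without Mono+MCTR3 mouse 1 (0.15) and without Mono+MCTR3 mouse 2 (0.08). Leave-one-out ranges were -0.049 to 0.52, -0.41 to 0.29 and -1.52 to 0.15 for these. The difference in the share of NK cells ranged from -3.11 to -1.05 percentage points with a mouse left out, that of CD8 T cells from -1.38 to 0.0993, and that of other T cells from -0.451 to 0.516. The last also turned with up to 10% mitochondrial UMIs (-0.0312) and with CD3 gates (-0.0641). Thinning moved 9 shares of cells by more than the spread between mice. No paired analysis was possible because the barcode suffixes carry no replicate number shared between the groups. Gzmk and Gzmm, Gzmb and Prf1 in T cells and Gzma in other T cells did not pass the filter on low counts and were not tested. Of the 144 Gzmb UMIs in CD8 T cells, 126 lay in Mono mouse 4.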
